A study of Homo sapiens with 6 samples.

Results

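The kinetochore is the protein assembly that is built on the centromere of each chromosome and holds it to spindle microtubules in mitosis. An inner layer around nucleosomes with the histone CENP-A carries the outer microtubule-binding layer, and the spindle checkpoint reads unattached kinetochores and holds back anaphase until every chromosome is attached. KNSTRN encodes kinastrin, a spindle and kinetochore protein that works with astrin (SPAG5). Here 49 genes of the kinetochore and the spindle checkpoint were followed in T24, a long-established human cell line from a bladder carcinoma, after small interfering RNA (siRNA) against KNSTRN. The genes were chosen by name, as components of the centromere, of the outer kinetochore complexes, of the passenger complex and of the checkpoint. Earlier results of these data were known when the choice was made. All 49 were among the 20442 genes of the deposited count table and all 49 passed the filter on low counts.

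The cells had attached for 24 h and were then given a control siRNA (si-NC) or the siRNA against KNSTRN (si-KNSTRN) for 24 h, with 3 libraries per group. The labels do not say whether these came from separate cultures, so p-values measure the spread between libraries, which may be technical. How many siRNA sequences were used is not given in the sources used here. Libraries held 16386799 to 20596074 counted reads. Among the members, 47 had at least 100 reads in every library, with a range from 36 reads of PMF1 to 8715 reads of CENPF. KNSTRN itself stood at 38.3, 41.2 and 41.9 read counts relative to library size (CPM, scaled between libraries by the TMM method) in si-NC libraries 1 to 3 and at 13.6, 13.6 and 12.2 CPM in si-KNSTRN libraries 1 to 3. Keratin genes KRT7, KRT8 and KRT18 were high in every library, at 812 to 1253 CPM, but the keratin gene KRT19 stood at 0.592 to 1.43 CPM. The epithelial marker CDH1 had no read and EPCAM stayed under 1 CPM, and the urothelial marker UPK3A had no read either. Of 3 leukocyte markers, CD3E had no read, PTPRC had at most 2 reads in a library, and CD68 rose from 29.7 to 35.3 CPM in si-NC to 44.4 to 46.8 CPM in si-KNSTRN libraries (edgeR, adjusted p = 1.1e-05). The 4 mesenchymal markers, nearly all of it VIM, summed to 6216 to 6773 CPM in si-NC and 3588 to 4018 CPM in si-KNSTRN libraries. The part of these markers in the members' changes was not tested.

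Of the 49 genes, 20 were lower (40.8%) and 14 higher (28.6%) in si-KNSTRN cells, and 15 were not called, at an adjusted p under 0.05 in edgeR's quasi-likelihood test. Over all 12650 genes tested, 31.3% were called lower and 31.2% higher, 62.5% in either direction, so the members' shares lay near the background. Their median log2 fold change was -0.06, beside -0.01 for all genes tested, and their median absolute log2 fold change was 0.23, beside 0.28. Every si-KNSTRN library lay below every si-NC library for 20 members (all genes: 33.9%) and above for 14 (all genes: 33.4%). Log2 fold changes of -0.5 or below were called for 6 members, SPC24, KNTC1, CENPH, CENPU, PMF1 and CDCA8 (12.2%; all genes: 13.5%). Log2 fold changes of 0.5 or above were called for 3, CENPP, CENPA and CENPX (6.12%; all genes: 10.9%). SPC24 had the largest fall and CENPP the largest rise.

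**Figure D1:**
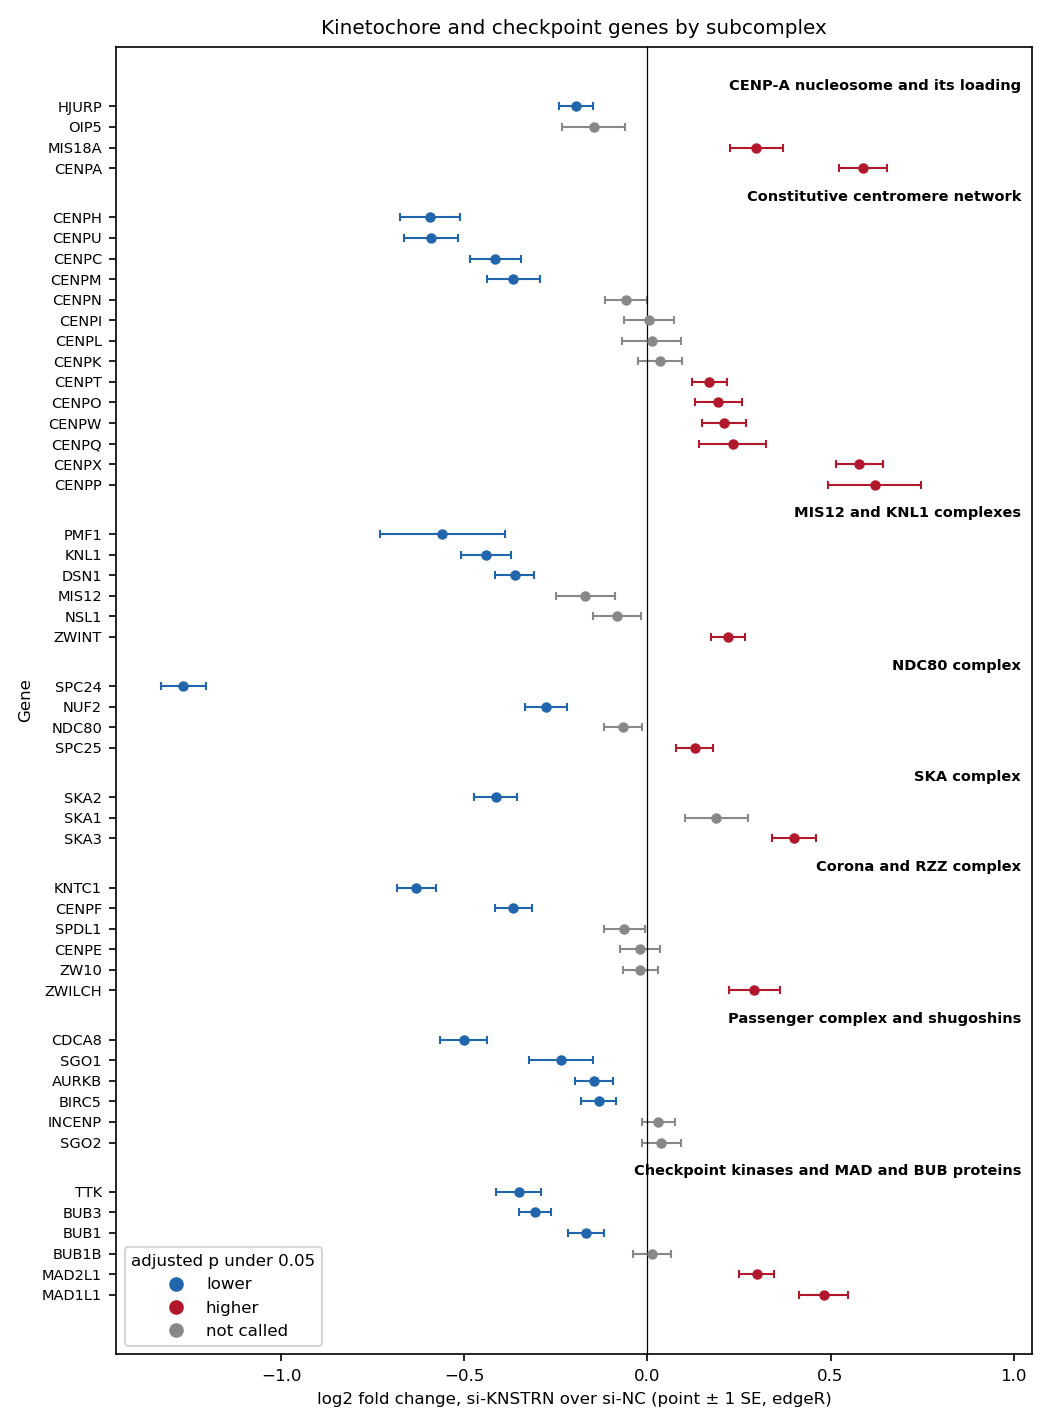
Log2 fold change of each of the 49 genes, si-KNSTRN over si-NC, as a point with 1 standard error on each side, grouped by subcomplex and coloured by call at an adjusted p under 0.05. Every subcomplex holds genes at both sides of or near 0, and SPC24 at -1.27 is the lowest.

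Sequences of 2 kinds are shown first, as a description of the members. The first kind is the promoter. Many genes expressed late in the cell cycle carry a cell cycle genes homology region (CHR, here searched as TTTGAA or TTTAAA) and CCAAT boxes near the start site, which are bound by the DREAM and MMB complexes and by NF-Y. RefSeq promoter windows (250 bases before to 50 after the start, GRCh38.p14) were found for 40 members, and both strands were searched. A CHR match lay in 20 of the 40 (50%), beside 21.3% of the 10272 tested genes with a window, and a CCAAT match in 28 (70.0%), beside 43.3%. By call, CHR matches lay in 5 of 13 members called lower, 6 of 13 called higher and 9 of 14 not called. Among all genes called lower, called higher and not called, the shares were 21.8%, 20.6% and 21.6%. CCAAT matches lay in 11 of 13 lower (84.6%; all genes called lower: 44.6%), 9 of 13 higher (69.2%; 42.5%) and 8 of 14 uncalled members (57.1%; 42.8%), and with 150 bases before the start in 11, 6 and 8. These splits are counts of few genes and were not tested. The E2F-like motif TTCCCGC was found in 8 of 40 (all genes: 12.8%), with 0 of 13 lower, 2 of 13 higher and 6 of 14 uncalled members. It lay in 13.1% of all genes called lower, 12.7% of those called higher and 12.5% of those not called. This split was not tested either. The 150 bases before the start are printed for 3 members that hold TTTGAA at nearly the same distance but differed in direction, CDCA8 (lower), CENPA (higher) and BUB1B (not called). Capitals mark CHR and CCAAT matches on either strand, where ATTGG is CCAAT read on the other strand.
CDCA8, plus strand, chr1:37692366-37692515: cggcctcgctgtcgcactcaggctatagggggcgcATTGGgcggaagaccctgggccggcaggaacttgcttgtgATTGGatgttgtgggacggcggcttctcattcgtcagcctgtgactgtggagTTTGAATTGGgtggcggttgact
CENPA, plus strand, chr2:26785906-26786055: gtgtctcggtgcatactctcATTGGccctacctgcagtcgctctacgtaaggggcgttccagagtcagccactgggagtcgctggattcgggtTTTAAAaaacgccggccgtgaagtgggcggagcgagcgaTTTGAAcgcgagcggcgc
BUB1B, plus strand, chr15:40160919-40161068: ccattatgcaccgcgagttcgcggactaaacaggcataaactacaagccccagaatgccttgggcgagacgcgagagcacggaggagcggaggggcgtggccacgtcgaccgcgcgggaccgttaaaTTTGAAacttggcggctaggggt
With the start site as position 0, TTTGAA begins at -23 in CDCA8, at -18 in CENPA and at -23 in BUB1B. A match describes letters in a window, not binding.

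The second kind is a short motif of the 3' untranslated region (UTR). TGAGTA was singled out in an earlier look at these same data, so its count among members is a description. It was searched on the transcript strand in the longest 3' UTR of each gene in GENCODE release 29, and all 49 members had one. TGAGTA lay in 13 of 49 members (26.5%), beside 30.6% of all tested genes with a 3' UTR. By call, it lay in 9 of 20 members called lower (45%; all genes called lower: 39.1%), 2 of 14 called higher (14.3%; 22.6%) and 2 of 15 not called (13.3%; 30.2%). Sites of 4 members are printed 5' to 3' in 26 bases, with the match and an adjoining C before or A after it in capitals.
KNL1 (lower), plus strand, chr15:40662276-40662301: cattacaagCTGAGTAAaattccttc
CDCA8 (lower), plus strand, chr1:37709624-37709649: tatattgttCTGAGTAAtggtatctt
CENPU (lower), minus strand, chr4:184695055-184695080: gttaatatctTGAGTAAttttaaaat
CENPF (lower), plus strand, chr1:214664237-214664262: ttctcagagCTGAGTAAaatgaagga
These 4 were chosen among the 9 members called lower, while CENPP and MAD2L1 also hold TGAGTA and were called higher. The sites of SPC24 and SKA1 lie in a stretch of 18 bases held by 147 tested 3' UTRs. Those of CENPC and MAD2L1 lie in a stretch of 18 bases held by 202.

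The 13 members with TGAGTA had a median log2 fold change of -0.31, with 69.2% called lower and 15.4% higher, and the 36 without it a median of -0.02, with 30.6% lower (11 genes) and 33.3% higher (12 genes). Among all tested genes with a 3' UTR, those with TGAGTA had a median of -0.10 (40.2% lower, 23.2% higher) and those without 0.04 (27.7% lower, 35.0% higher). The difference between members with and without the motif was not tested. Median 3' UTR length also differed, at 1689 bases for the 13 members and 621 for the 36. The part of the motif or of length in any member's change was not tested, and the siRNA sequence is not given in the sources used here.

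**Figure D2:**
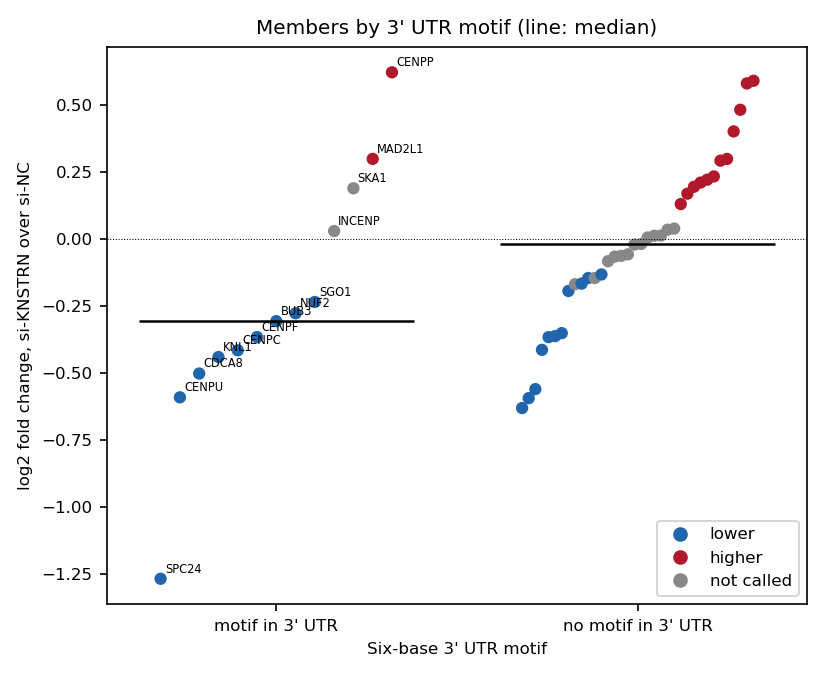
Log2 fold change of the 13 members with the motif TGAGTA in the 3' UTR (left, named) and of the 36 without it (right), each point a gene coloured by call, with the median as a line at -0.31 and -0.02. SPC24 lies lowest among those with the motif, and CENPP, MAD2L1, SKA1 and INCENP lie above 0.

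Starting at the chromatin, the gene of the centromeric histone, CENPA (chromosome 2, 26786056 to 26794589, GRCh38), rose. It stood at 30.1, 30.0 and 33.7 CPM in si-NC libraries 1 to 3 and at 45.003, 49.6 and 46.6 CPM in si-KNSTRN libraries 1 to 3. The groups were well apart. The log2 fold change was 0.59 with an SE of 0.07 (edgeR, adjusted p = 9.0e-07; every p below is from the same fit). HJURP, the chaperone that places CENP-A into nucleosomes, went the other way, at 159, 159 and 161 CPM against 147, 138 and 134 CPM (log2 fold change -0.19, SE 0.05, adjusted p = 0.0016). The 2 proteins that prime centromeres for loading also differed. MIS18A rose by a log2 fold change of 0.30 (adjusted p = 0.0017), and OIP5, which encodes MIS18-beta, had -0.15 (adjusted p = 0.15). Of these 4 genes, 2 were higher (50%, all genes: 31.2%) and 1 lower (25%, all genes: 31.3%), with a median of 0.08.

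The constitutive centromere network is the set of CENP proteins that stays on CENP-A chromatin through the cell cycle. Of its 14 members 4 were lower (28.6%, all genes: 31.3%) and 6 higher (42.9%, all genes: 31.2%). Their median was 0.02, which turned to -0.02 with upper-quartile scaling. CENPH (chromosome 5, 69189583 to 69210357), a subunit of the CENP-HIKM group that links CENP-A chromatin to the outer layer, fell from 40.9, 38.9 and 48.8 CPM to 30.6, 26.9 and 27.6 CPM (log2 fold change -0.59, SE 0.08, adjusted p = 8.9e-06). Its partner CENPM fell by 0.37 on the log2 scale, whereas CENPI and CENPK had log2 fold changes of 0.00 and 0.03 and overlapping groups. The read ratio of CENPH to CENPK was 0.807, 0.841 and 0.9015 in si-NC libraries and 0.573, 0.537 and 0.540 in si-KNSTRN libraries. CENPC, a scaffold that binds both CENP-A nucleosomes and the outer MIS12 complex, fell by 0.42 (adjusted p = 7.5e-05).

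The CENP-OPQU group, which recruits the kinase PLK1 to the inner kinetochore, held called members in both directions. CENPU (chromosome 4, 184694085 to 184734096), its PLK1-binding subunit, stood at 49.5, 46.8 and 50.8 CPM in si-NC and 35.0, 34.1 and 28.5 CPM in si-KNSTRN libraries (log2 fold change -0.59, SE 0.07, adjusted p = 2.7e-06). CENPP had the highest log2 fold change of all members, at 5.02, 5.16 and 6.76 CPM against 8.70, 7.92 and 9.42 CPM (0.62, SE 0.13, adjusted p = 4.7e-04). It is also among the lowest members in level, with 83 to 175 reads a library, and 31.3% of its exon bases overlap IPPK or NOL8. CENPU shares 17.3% of its exon bases with PRIMPOL, and CENPO 28.3% with ADCY3 and PTRHD1, so that without strand information reads there cannot be told apart. CENPO and CENPQ had log2 fold changes of 0.19 (adjusted p = 0.014) and 0.23 (adjusted p = 0.038). The call of CENPQ was lost when si-NC library 2, si-KNSTRN library 1 or si-KNSTRN library 3 was left out, with DESeq2 and with upper-quartile scaling, at adjusted p from 0.075 to 0.20. CENPO lost its call without si-NC library 1 (adjusted p = 0.083).

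The histone-fold proteins CENP-T, CENP-W and CENP-X form a second link to the NDC80 complex, and all 3 of their genes rose. CENPX (chromosome 17, 82018703 to 82022878) went from 56.7, 64.7 and 53.6 CPM to 80.5, 89.8 and 90.6 CPM, with no overlap (log2 fold change 0.58, SE 0.06, adjusted p = 9.2e-07). CENPW rose by 0.21 on the log2 scale (adjusted p = 0.0065) and CENPT by 0.17 (adjusted p = 0.0057). CENPL and CENPN, which pair with each other and read the CENP-A nucleosome, had 0.01 and -0.06 and were not called.

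**Figure D3:**
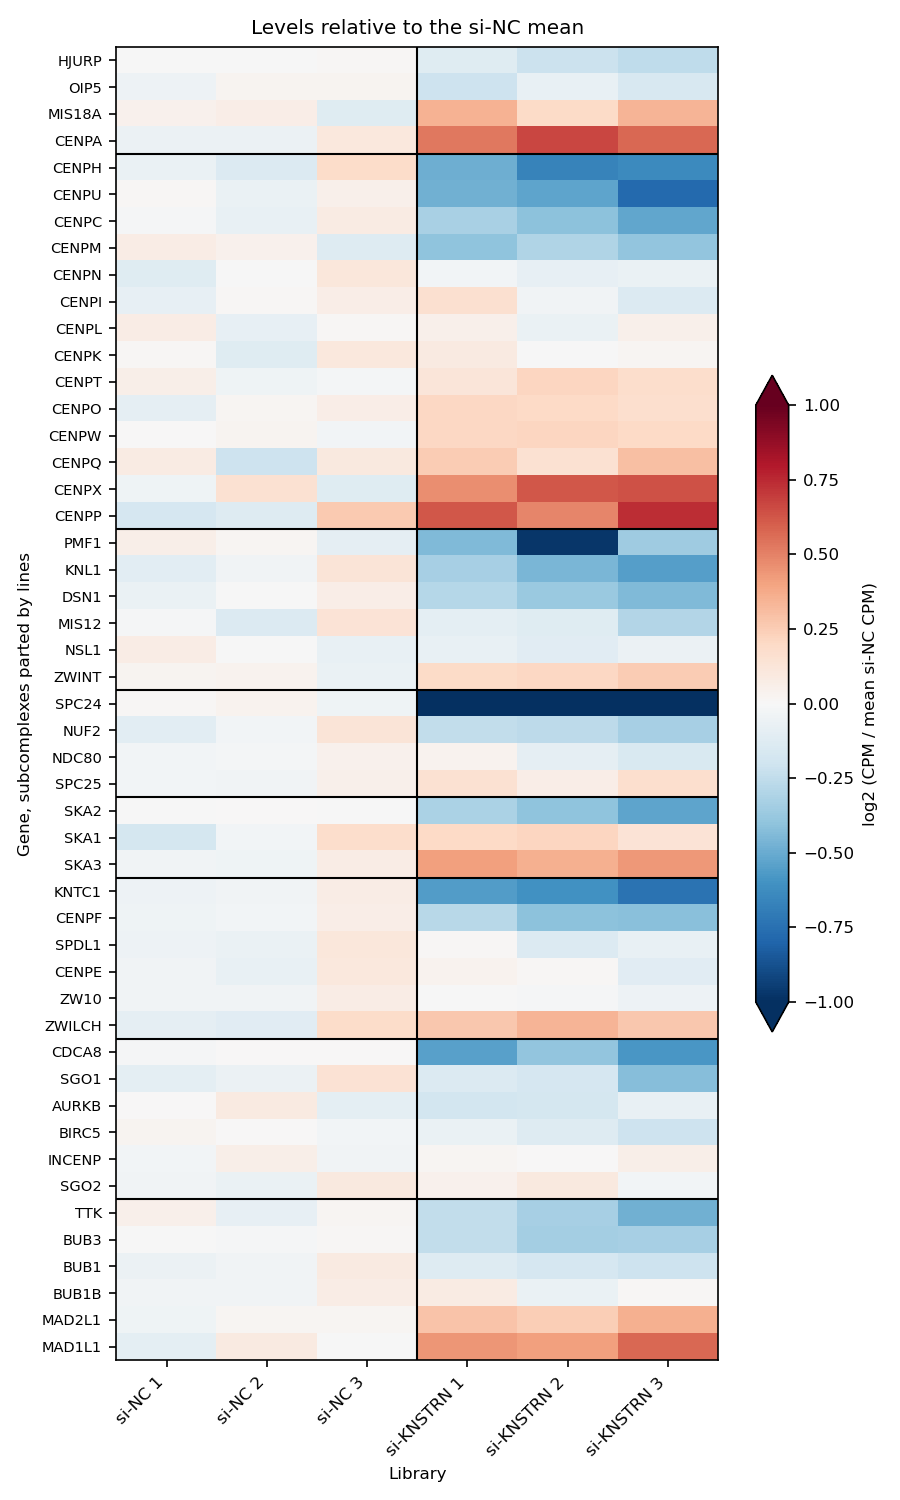
Log2 ratio of each library's CPM to the mean si-NC CPM for all 49 genes (rows, by subcomplex and then by log2 fold change) in 6 libraries (columns), with colours cut at -1 and 1. Blue and red rows stand side by side inside most subcomplexes, and SPC24 is past the lower end of the scale in all 3 si-KNSTRN libraries.

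The MIS12 and KNL1 complexes form the platform between centromere and microtubule-binding proteins. Of 6 members 3 were lower (50%, all genes: 31.3%) and 1 higher (16.7%, all genes: 31.2%), with a median of -0.27. KNL1 (chromosome 15, 40594249 to 40664342), the scaffold whose repeats recruit the BUB proteins, fell from 54.3, 57.2 and 64.1 CPM to 46.6, 42.7 and 39.9 CPM (log2 fold change -0.44, SE 0.07, adjusted p = 3.4e-05). DSN1, the MIS12 subunit regulated by Aurora B, fell from 71.1, 74.1 and 77.9 CPM to 61.1, 57.4 and 54.8 CPM (-0.36, SE 0.05, adjusted p = 1.8e-05). Both were lower in every si-KNSTRN library than in any si-NC library. MIS12 and NSL1 had -0.17 (adjusted p = 0.077) and -0.08 (adjusted p = 0.27). ZWINT, the partner of KNL1, rose by a log2 fold change of 0.22 (adjusted p = 4.9e-04).

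PMF1, the last MIS12 subunit, was counted at 4.09, 3.98 and 3.68 CPM in si-NC and 2.88, 1.99 and 3.07 CPM in si-KNSTRN libraries (log2 fold change -0.56, SE 0.17, adjusted p = 0.0090). It shares 49.2% of its exon bases with the read-through gene PMF1-BGLAP, so its level is uncertain. Without si-KNSTRN library 2 the adjusted p was 0.057.

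The NDC80 complex is the rod of 4 proteins that binds microtubules directly, with NDC80 and NUF2 at the microtubule end and SPC24 and SPC25 at the chromosome end. SPC24 (chromosome 19, 11145493 to 11155782) stood at 69.6, 70.8 and 67.0 CPM in si-NC libraries 1 to 3 and at 30.7, 29.2 and 26.2 CPM in si-KNSTRN libraries 1 to 3. The groups lay far apart, with little spread inside either. This was a 2.41-fold lower level (log2 fold change -1.27, SE 0.06, adjusted p = 5.7e-11). SPC25, its direct binding partner, stood at 54.4, 54.1 and 57.5 CPM against 61.5, 57.9 and 62.2 CPM, which gave 0.13 on the log2 scale (adjusted p = 0.035). That small call was lost in 6 of 14 alternatives, among them the fits that left out library 1 or 2 of si-NC, or 1 or 3 of si-KNSTRN, at adjusted p from 0.074 to 0.14. NUF2 fell from 95.03, 100 and 112 CPM to 86.5, 85.6 and 81.1 CPM (-0.28, SE 0.06, adjusted p = 4.8e-04), and NDC80 had -0.07 (adjusted p = 0.28). The read ratio of SPC24 to SPC25 was 1.28, 1.31 and 1.17 in si-NC libraries and 0.499, 0.505 and 0.422 in si-KNSTRN libraries.

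Levels of different genes were compared per kilobase of transcript (RPKM). In si-NC cells NUF2 stood at 55.5 ± 4.65 RPKM, NDC80 at 45.3 ± 1.23, SPC25 at 40.9 ± 1.37 and SPC24 at 29.9 ± 0.854 RPKM (SD, n = 3). SPC24 was thus already the lowest of the 4, and in si-KNSTRN cells it stood at 12.4 ± 0.984 RPKM. There NUF2, SPC25 and NDC80 stood at 45.7 ± 1.56, 44.7 ± 1.73 and 43.3 ± 2.90 RPKM and did not differ beyond their spread. Their order depends on the transcript length used: with the longest transcript NUF2 stood at 42.9 ± 1.46 RPKM in si-KNSTRN cells. The share of SPC24 in the summed level of the complex was 17.4% in si-NC and 8.48% in si-KNSTRN cells.

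The SKA complex stabilises the grip of NDC80 on microtubules and is built from SKA1, SKA2 and SKA3. SKA2 (chromosome 17, 59109857 to 59155186) fell from 57.7, 58.0 and 57.6 CPM to 46.4, 43.6 and 40.001 CPM (log2 fold change -0.41, SE 0.06, adjusted p = 1.2e-05). SKA3 (chromosome 13, 21153595 to 21176552) rose from 35.3, 35.0 and 38.1 CPM to 48.0, 46.2 and 48.8 CPM (0.40, SE 0.06, adjusted p = 1.9e-05). Neither gene had overlapping groups. SKA1 had a log2 fold change of 0.19 (adjusted p = 0.066). Per kilobase, SKA2 was the highest of the 3 in si-NC cells (20.7 ± 0.0616 RPKM, beside 13.2 ± 0.614 for SKA3, SD, n = 3), and in si-KNSTRN cells SKA3 stood at 17.4 ± 0.489 and SKA2 at 15.5 ± 1.15 RPKM. That later order depends on the transcript length used: with the longest transcript SKA3 stood at 16.3 ± 0.459 RPKM there, and in si-KNSTRN library 1 SKA2 was the higher (16.6 against 16.5 RPKM). The read ratio of SKA2 to SKA3 was 1.635, 1.655 and 1.514 in si-NC and 0.966, 0.944 and 0.819 in si-KNSTRN libraries.

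**Figure D4:**
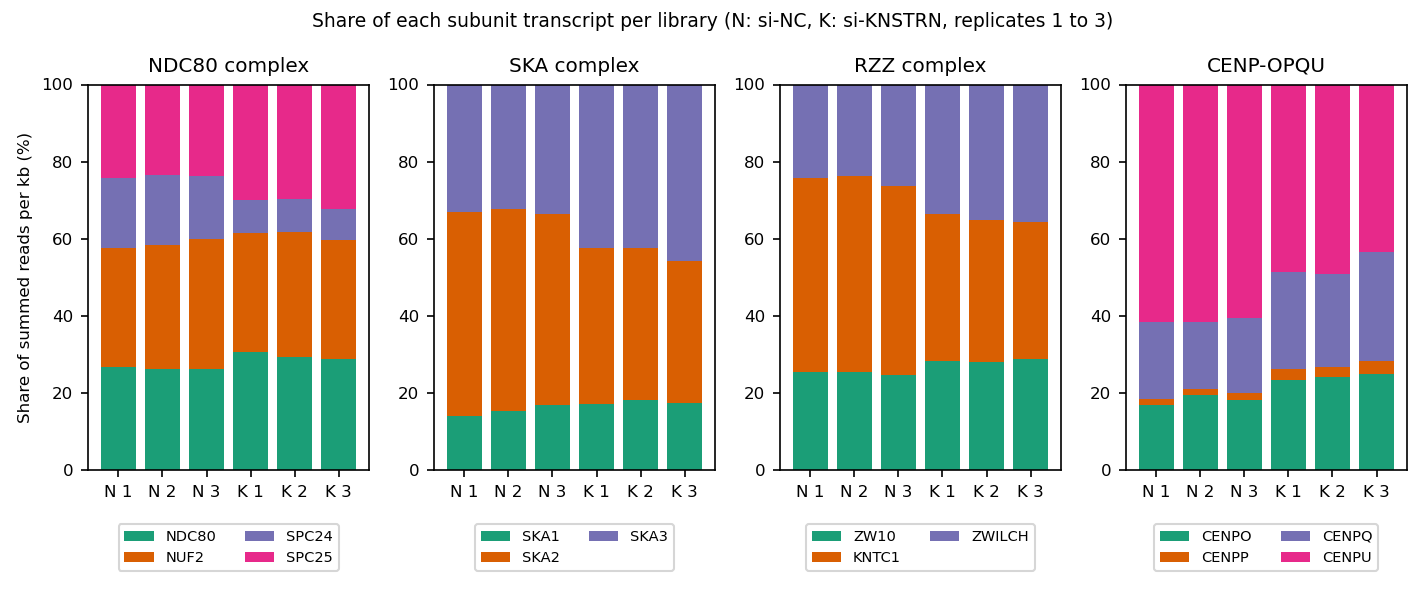
Share of each subunit in the summed reads per kilobase of the members of its complex, in percent, in each library, for the NDC80, SKA, RZZ and CENP-OPQU groups. The share of SPC24, SKA2, KNTC1 and CENPU is smaller in each si-KNSTRN library than in any si-NC library.

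The corona is the outermost layer, which forms on kinetochores that lack microtubules, and its RZZ complex of KNTC1 (ROD), ZW10 and ZWILCH brings dynein and the MAD proteins there. KNTC1 (chromosome 12, 122527249 to 122626396) fell from 145, 147 and 158 CPM to 102, 99.0 and 90.1 CPM, the second largest fall of all members (log2 fold change -0.63, SE 0.05, adjusted p = 4.0e-08). ZWILCH rose from 42.5, 41.6 and 51.3 CPM to 54.4, 57.0 and 54.3 CPM (log2 fold change 0.29, adjusted p = 0.0017), with 9.45% of its exon bases shared with LCTL and RPL4. ZW10 was not called, at -0.02. The read ratio of KNTC1 to ZWILCH was 3.42, 3.53 and 3.09 in si-NC and 1.88, 1.74 and 1.66 in si-KNSTRN libraries. CENPF (chromosome 1, 214603195 to 214664571), a large corona protein that anchors dynein regulators, was the most abundant member by reads. It fell from 429, 434 and 462 CPM to 365, 333 and 330 CPM (log2 fold change -0.37, SE 0.05, adjusted p = 8.9e-06). CENPE, the corona kinesin that carries chromosomes to the spindle equator, and SPDL1, the dynein adaptor Spindly, had -0.02 and -0.06 and were not called.

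Of the passenger complex and the shugoshins, 4 of 6 were lower (66.7%) and none higher, with a median of -0.14. Beside this, 31.3% of all genes tested were called lower and 31.2% higher, and a set of 6 is small. The passenger complex places the kinase Aurora B at the inner centromere, where it releases wrong attachments. CDCA8 (chromosome 1, 37692516 to 37709719), which encodes borealin, fell from 42.9, 43.4 and 43.2 CPM to 29.6, 32.9 and 28.9 CPM (log2 fold change -0.50, SE 0.06, adjusted p = 3.7e-06). The si-NC libraries hardly differed from one another. AURKB, the kinase gene, stood at 136, 144 and 126 CPM against 119, 119 and 128 CPM (-0.15, SE 0.05, adjusted p = 0.024), and its groups overlapped. BIRC5, which encodes survivin, had -0.13 (adjusted p = 0.024), and SGO1, the guard of centromeric cohesion, -0.24 (adjusted p = 0.028). These 3 calls were the weakest among the falls. AURKB and BIRC5 lost theirs with library size as the scaling and when si-NC library 1, si-NC library 2 or si-KNSTRN library 2 was left out, AURKB also without si-KNSTRN library 1 and BIRC5 without si-KNSTRN library 3, at adjusted p up to 0.14. SGO1 lost its call when library 3 of either group was left out, with library size and with DESeq2 (adjusted p up to 0.15). INCENP, the scaffold, and SGO2 had 0.03 and 0.04.

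Among the 6 checkpoint genes, 3 fell (50%, all genes: 31.3%) and 2 rose (33.3%, all genes: 31.2%). TTK, which encodes the MPS1 kinase that starts the signal at KNL1, fell by 0.35 on the log2 scale (adjusted p = 9.1e-05). BUB3 (chromosome 10, 123154402 to 123170467), which binds phosphorylated KNL1, fell from 175, 174 and 176 CPM to 147, 138 and 139 CPM (log2 fold change -0.31, SE 0.04, adjusted p = 1.5e-05), and BUB1 fell by 0.17 (adjusted p = 0.0069). BUB1B, the gene of BUBR1, had 0.01 (adjusted p = 0.85). MAD1L1 (chromosome 7, 1815795 to 2232945), whose protein presents MAD2 at the kinetochore, rose from 29.6, 33.8 and 31.6 CPM to 43.0, 42.2 and 47.1 CPM (0.48, SE 0.07, adjusted p = 1.1e-05). MAD2L1, the gene of MAD2, which closes around CDC20, rose from 99.4, 104 and 104 CPM to 124, 122 and 131 CPM (0.30, SE 0.05, adjusted p = 3.7e-05). Groups did not overlap for any of these 5 called genes.

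**Figure D5:**
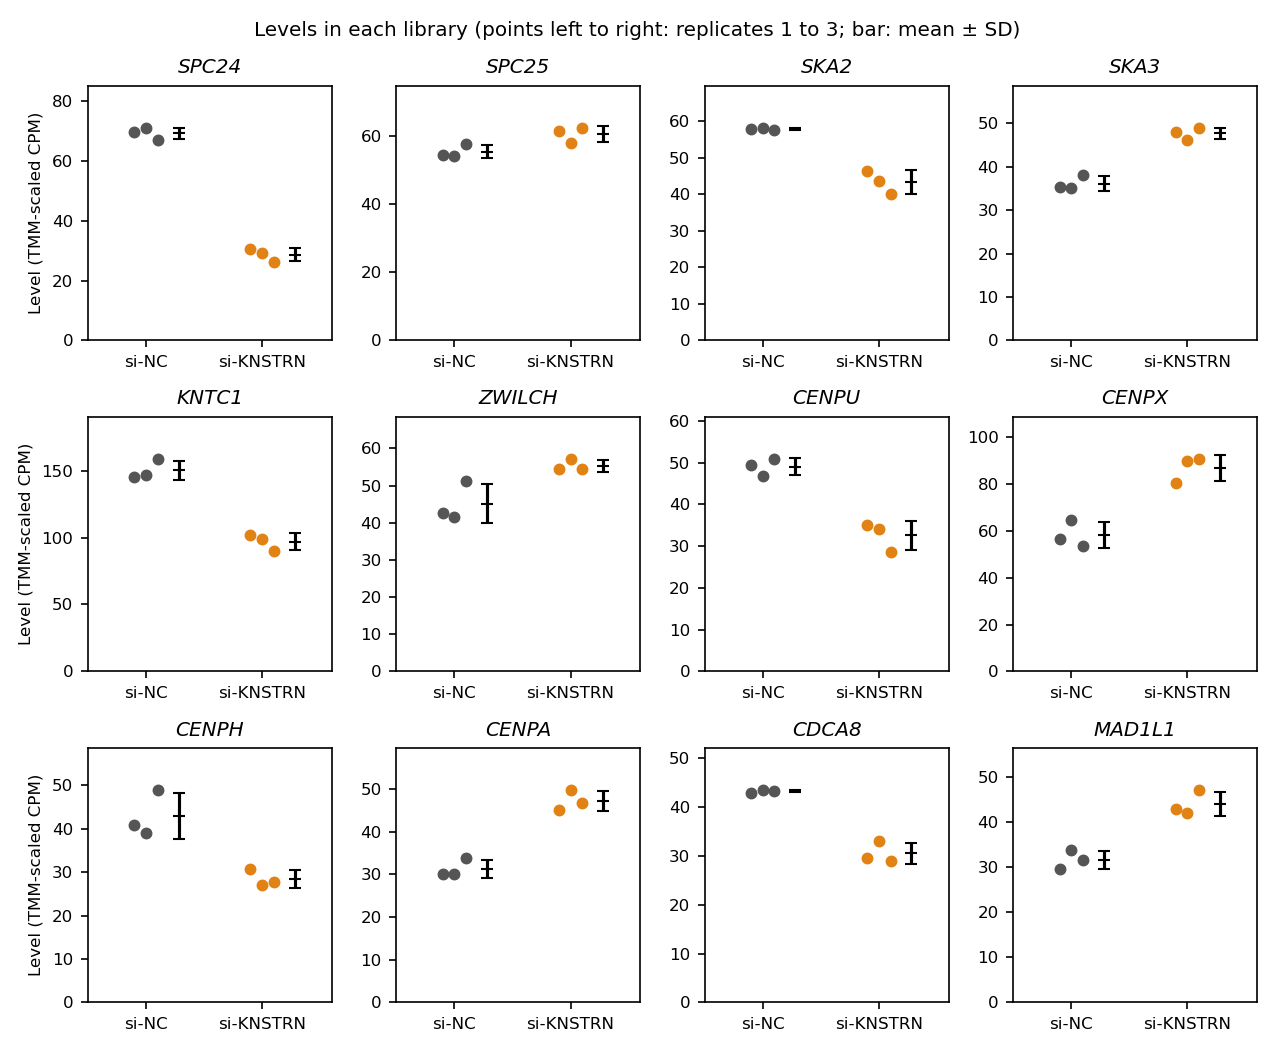
TMM-scaled CPM of 12 members in each library (points, replicates 1 to 3 from left to right; bars are mean and SD, n = 3), with axes from 0. SPC24, SKA2, KNTC1, CENPU, CENPH and CDCA8 are lower in every si-KNSTRN library than in any si-NC library, and SPC25, SKA3, ZWILCH, CENPX, CENPA and MAD1L1 are higher.

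Of 9 assemblies with fixed subunits (NDC80, MIS12, SKA, RZZ, the passenger complex, CENP-HIKM, CENP-LN, CENP-OPQU and CENP-TWX), 4 held called genes in both directions, NDC80, SKA, RZZ and CENP-OPQU. NDC80 is among them only through SPC25, whose call was lost in 6 of 14 alternatives. Each assembly was counted from its subunits among the members alone, so CENP-OPQU and CENP-TWX may be incomplete. The centromere genes ITGB3BP and CENPS were not members and were counted in no assembly. ITGB3BP was not called (log2 fold change 0.16, adjusted p = 0.082), and CENPS had no read. The range of log2 fold changes within an assembly was 1.40 in NDC80, 1.21 in CENP-OPQU, 0.92 in RZZ and 0.81 in SKA, and 0.07 in CENP-LN. Over all genes tested, 31.3% were called lower and 31.2% higher, so sets of a few genes can hold both directions without being related. The count of 4 and these ranges are a description and were not tested against other sets of genes.

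Other genes of the pathway were counted from lists drawn up by function. Over all genes tested, 31.3% were called lower and 31.2% higher. Of 19 further centromere and kinetochore genes tested, 6 were lower (31.6%) and 8 higher (42.1%). NUP43, a nucleoporin that also sits at kinetochores, fell by 0.66, and the microtubule plus-end genes CLIP1, MAPRE1 and CLASP2 rose by 0.42, 0.37 and 0.35 on the log2 scale. Of 23 genes of the anaphase-promoting complex (APC/C), the ubiquitin ligase that the checkpoint restrains, and of checkpoint exit, 9 were lower (39.1%) and 6 higher (26.1%). ANAPC16, an APC/C subunit, the E2 enzyme gene UBE2C and the securin gene PTTG1 fell by 0.64, 0.39 and 0.35, and TRIP13, the ATPase that opens MAD2, rose by a log2 fold change of 0.46.

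Transcription regulators of mitotic genes divided into 6 lower (25%; all genes: 31.3%) and 9 higher (37.5%; all genes: 31.2%) of 24. The DREAM subunit gene RBBP4 fell by 0.46, and the E2F partner TFDP1, the repressor E2F7 and the CDK inhibitor CDKN1A rose by 0.58, 0.42 and 2.36 on the log2 scale. In the same libraries 15 of 22 G2/M markers were lower (68.2%) and 3 higher (13.6%). TOP2A (-0.84), ASPM (-0.71), CDC25C (-0.62) and HMMR (-0.42) had the smallest p, and CCNB1, PLK1 and KIF23 were the 3 that rose. The 22 markers summed to 4875 to 5298 CPM in si-NC and 4392 to 4603 CPM in si-KNSTRN libraries. Of 18 G1/S markers 12 were lower (66.7%) and 4 higher (22.2%), led by TYMS (-1.27), MCM3 (-1.05) and MCM6 (-0.66), with CCNE1 at 1.06. The 18 markers' sum went from 2775 to 2791 CPM down to 2230 to 2257 CPM. The summed level of the 49 members was 3632 to 3807 CPM in si-NC and 3362 to 3515 CPM in si-KNSTRN libraries. Bulk RNA cannot tell apart fewer cells in a cycle phase from less RNA per cell, and the part of the cycle markers in the members' changes was not tested.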

How the data were processed

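Groups and replicate numbers came from the sample titles. The values are raw read counts per gene, deposited by the authors without normalization; the tools listed in the submitters' processing notes are HISAT2 2.0.1, featureCounts, fastp 0.20.0 and FastQC 0.11.5, with GRCh38. The strand setting and the annotation behind the counts: not given in the sources used here. P-values measure the spread between these libraries.

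The members and gene lists were chosen with earlier results of these data known. With edgeR 4.0.16 (R 4.3.3), filterByExpr (minimum count 10) left 12650 genes, and the quasi-likelihood test (two-sided, TMM factors) compared si-KNSTRN with si-NC, adjusted by Benjamini-Hochberg over all genes tested. Each SE is the log2 fold change over the square root of F. Full values are given for the 2 members of each subcomplex with the smallest p and for called members at an absolute log2 fold change of at least 0.5, and for other lists the 4 genes with the smallest p are named; further genes were named after their values were seen. RPKM used the first listed protein-coding transcript of GENCODE release 29 (basic set). A read total of 3, set here as an approximate upper bound for a gene with 0 reads, is 0.148 to 0.187 CPM, for counting error only. In data simulated for this comparison (12553 genes tested), 68% of 50 genes changed 1.25-fold and 94% of 50 changed 4-fold were recovered, with 12 false calls. The simulation left 12356 of the tested genes unchanged, whereas 62.5% of genes were called in the real data. Its rates may therefore not hold for the real data. Alternatives were other scalings and filters, DESeq2 1.42.0, limma-voom (limma 3.58.1), the replicate block and each library left out. Tables and figures used Python 3.11.15, pandas 2.3.3 and matplotlib 3.10.9. Some sequence sites are not reported here.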

Additional observations from a re-analysis of the deposited data

How the results depend on the processing

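Of 34 called members, 27 kept call and direction in all 14 refits (scaling, filter, DESeq2, limma-voom, replicate block, each library left out), 7 lost the call in at least 1 (AURKB, BIRC5, CENPO, CENPQ, PMF1, SGO1 and SPC25), and no called value changed sign. MIS12 and SKA1 were called only under alternatives. Over the refits 17 to 21 members were called lower and 12 to 15 higher. With an absolute log2 fold change of at least 0.3 also required, 14 were lower and 5 higher (73.7% of calls lower, beside 58.8%). The share of all genes at this threshold was not computed, so that split has no background beside it. At an absolute log2 fold change of at least 0.5, 13.5% of all genes were called lower and 10.9% higher. From fewer genes, 17 of 38 were lower and 9 higher without members whose RefSeq gene span overlaps another gene of the count table. CENPN stayed among these 38, though 14.5% of its exon bases are shared with CMC2. Without members that hold TGAGTA, 11 of 36 were lower and 12 higher. Because TGAGTA was singled out in these same data, and genes holding it were more often called lower, fewer falls there follow from the choice. That setting is no check of the calls. With the replicate number as a block, 20 were lower and 14 higher, as without it; same-numbered libraries had correlations of deviations of -0.063, 0.053 and -0.034, and the numbers were not taken as pairs.

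Median log2 fold changes moved beyond 1 SD as follows. With library size alone the CENP-A group had 0.11 and the passenger group -0.10, and with upper-quartile factors 0.0325 and -0.18. Without TGAGTA genes the MIS12 and KNL1 group had -0.17, the NDC80 group 0.0314 and the SKA group -0.0069. Only NDC80 and SPC25 were left in that NDC80 value, and only SKA2 and SKA3 in that SKA value. These shifts too follow from the choice of motif. Without members whose gene span overlaps another gene, the NDC80 group had -0.28 and the checkpoint group -0.17. Leaving out a library gave the SKA group 0.10 (without si-NC library 1) to 0.29 (without si-NC library 3). Per kilobase, KNTC1 held 40.2% (si-NC) and 28.8% (si-KNSTRN) of its complex with the longest transcript, beside 50% and 36.8%. Depth limits PMF1 most, at 36 to 83 reads.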
